A study of Mus musculus with 21 samples.

Results

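The genes described here are 8 nuclear effectors and target repressors of Notch signalling, namely Hes1, Hey1, Hey2, Heyl, Nrarp, Rbpj, Maml1 and Maml2. They were found by gene symbol, and each matched 1 row of the 20872 genes measured. Expression was profiled by RNA sequencing of mouse aortic valves (AV) in 21 libraries. N1 stands for Notch1, and N1het for valves of N1+/- mice, which keep 1 working Notch1 allele. The groups were N1het stenosis XCT790 (3 libraries), N1het stenosis (solvent, 3 libraries), N1het healthy XCT790 (5 libraries), N1het healthy (solvent, 6 libraries) and WT (N1+/+, healthy valve, solvent, 4 libraries). Every mouse, WT controls included, was Terc-/- of generation 2, that is, it lacked the telomerase RNA and had shortened telomeres, so no library represents a mouse with normal telomeres. XCT790, an inverse agonist of the oestrogen-related receptor alpha, was injected into the peritoneum every day at 5 mg/kg for 4 weeks from 4 weeks of age, and the other mice received solvent. The groups follow the sample titles. In 6 libraries the agent field says the opposite of the title: solvent for N1het healthy XCT790 1, 2 and 3, and XCT790 for N1het stenosis 1, 2 and 3.

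When a ligand on a neighbouring cell binds a Notch receptor, the receptor is cut and its intracellular domain moves to the nucleus. There it binds the DNA-binding protein RBPJ, and a Mastermind-like coactivator (MAML1 or MAML2) docks onto the pair and recruits histone acetyltransferases. Without the intracellular domain, RBPJ sits with corepressors. Hes1, Hey1, Hey2 and Heyl are classic targets of the complex and encode basic helix-loop-helix repressors that shut off genes further down. NRARP, the product of another direct target, is a small ankyrin repeat protein that damps the complex. NOTCH1 mutations cause aortic valve disease in people, and Notch signalling is required for valve formation in the mouse embryo.

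Promoter windows, from 250 bases before to 50 bases after a RefSeq transcription start (build GRCm38.p6), were matched by symbol for Hey2, Nrarp, Rbpj, Maml1 and Maml2, 5 of the 8 genes. They were searched on both strands for the high-affinity RBPJ motif GTGGGAA, which reads TTCCCAC on the opposite strand, and for the palindromic E-box CACGTG, a form bound by basic helix-loop-helix proteins. The motifs share no bases in the windows shown. The Hey2 window at chr10:30842734-30843033, minus strand, and the Nrarp window at chr2:25180508-25180807, plus strand, are given 5′ to 3′ because they were the promoters of members with a match, and capitals mark the matches.
Hey2: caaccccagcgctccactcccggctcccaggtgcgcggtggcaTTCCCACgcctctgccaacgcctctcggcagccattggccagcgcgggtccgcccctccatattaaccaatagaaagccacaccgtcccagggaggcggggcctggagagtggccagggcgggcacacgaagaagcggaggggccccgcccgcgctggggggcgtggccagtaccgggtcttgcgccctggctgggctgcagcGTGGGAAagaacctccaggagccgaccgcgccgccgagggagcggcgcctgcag
Nrarp: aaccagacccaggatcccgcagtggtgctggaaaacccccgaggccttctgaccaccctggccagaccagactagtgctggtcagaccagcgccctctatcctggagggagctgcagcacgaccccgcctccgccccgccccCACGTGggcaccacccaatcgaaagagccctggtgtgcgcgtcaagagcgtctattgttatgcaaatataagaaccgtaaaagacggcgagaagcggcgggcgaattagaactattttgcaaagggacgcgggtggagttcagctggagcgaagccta
The Hey2 window held 2 matches of the RBPJ motif, beginning at positions -207 and -4 from the start. Of 32851 mouse promoter windows of the same length, 6.38% held at least 1 match and 0.256% held 2 or more. The Nrarp window held 1 E-box, at -108, which 7.15% of the promoter windows also held. These letters were not found in the windows of Rbpj, Maml1 or Maml2. A match describes the letters in the window and does not show binding.

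All 8 genes were measurable in valve tissue. Levels are in FPKM (fragments scaled by gene length and sequencing depth), which allows genes to be compared per length, and the SD is over the 21 libraries. Hes1 had the highest mean, 36.0 ± 14.5 FPKM (SD, n = 21). Heyl followed with 27.7 ± 15.9, Maml2 with 25.4 ± 6.26, Hey1 with 24.1 ± 18.6, Rbpj with 23.6 ± 5.78 and Hey2 with 22.1 ± 17.05 FPKM. Maml1 averaged 12.9 ± 6.20 FPKM, and Nrarp was the lowest at 2.83 ± 2.30 FPKM. The lower end of this order was firm, since Maml1 exceeded Nrarp in 21 of 21 libraries, with a difference of 2.05 ± 1.28 on the log2 scale (SD). Elsewhere in the order, neighbouring genes were not separated beyond their spread, and the gene with the higher mean was the higher one in 7 to 15 of the 21 libraries.

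The genes fell into steady and variable ones. Within groups, on the log2(FPKM + 1) scale, the SD was 0.34 for Rbpj and 0.37 for Maml2, against a median of 0.67 over the 14966 genes tested. These values placed the DNA-binding partner and its coactivator at percentiles 7.70 and 11.01 of all within-group SDs. By mean level Rbpj and Maml2 stood at percentiles 79.1 and 80.7, and SDs were not compared among genes of like level. Hes1 (0.50) and Maml1 (0.53) were also below the median. The other targets were above it, with SDs of 0.79 for Heyl, 0.99 for Hey1, 1.00 for Hey2 and 1.08 for Nrarp. From the lowest to the highest library the level spanned 2.30-fold for Rbpj and 20.5-fold for Hey1.

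Nrarp was the gene with the least depth behind it. Its reads, recovered from the steps of the FPKM values, ran from 0 to 289 per library with a median of 87. It stood at 0 reads in N1het healthy 3 and N1het healthy XCT790 4, where a limit of 3 reads allows up to 0.103 and 0.0806 FPKM. That limit covers counting error only. The other 7 genes had at least 76 reads in every library.

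**Figure D1:**
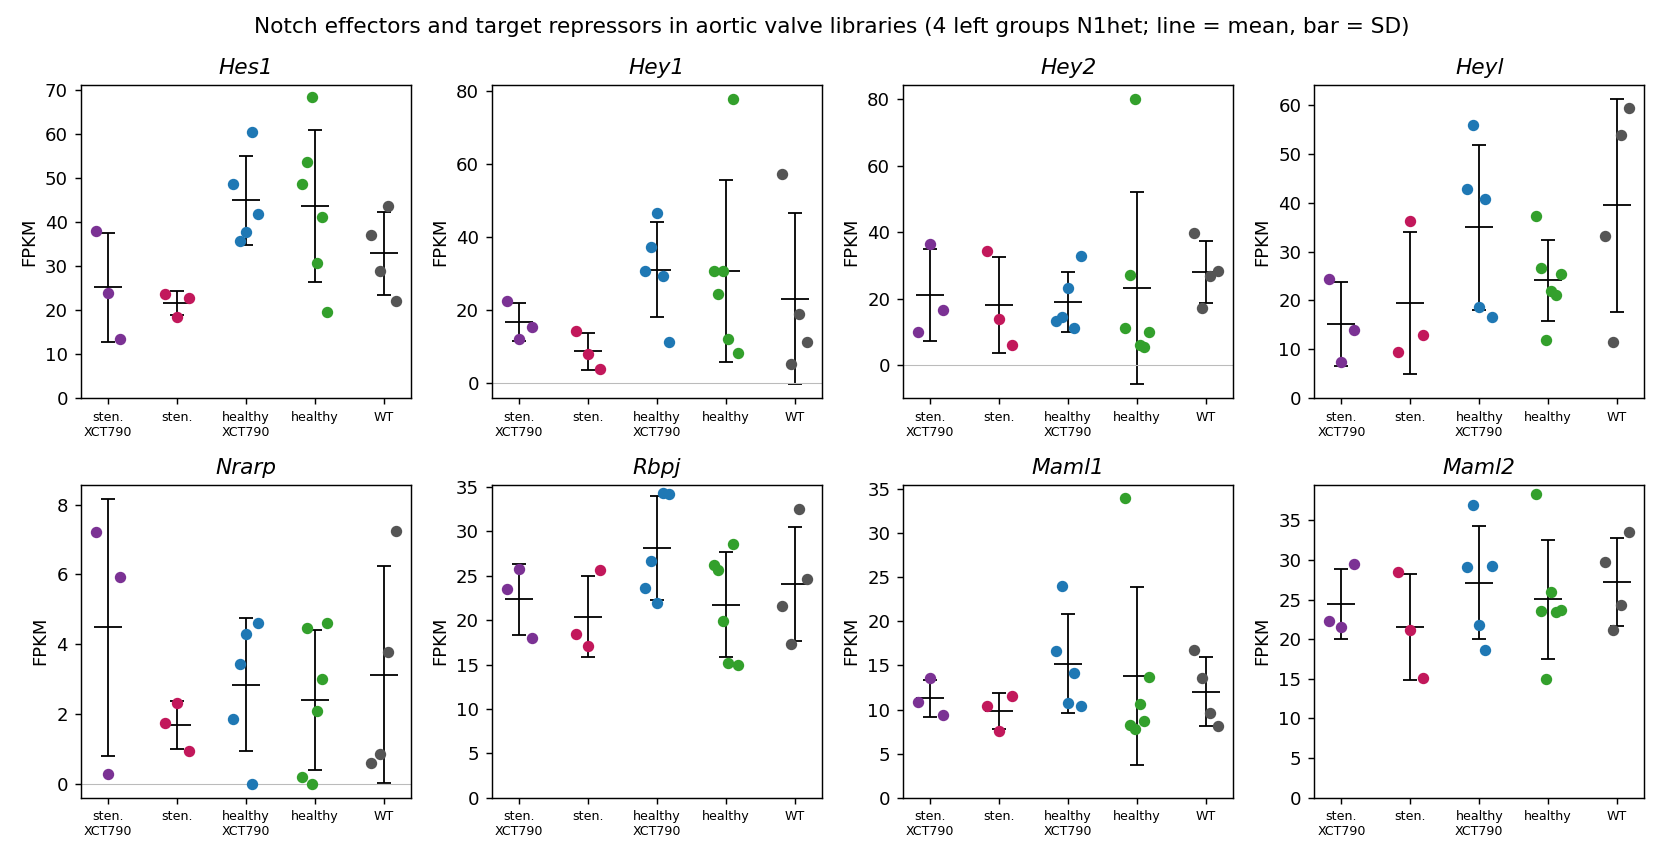
FPKM (vertical axes, each from 0 or just below it, own scale for each gene) of the 8 genes in each of the 21 libraries, by group from N1het stenosis XCT790 at the left to WT at the right; lines are group means and bars the SD. Hes1 sits between 13.3 and 38.0 FPKM in the 6 stenotic libraries and between 19.6 and 68.3 FPKM in the 11 healthy N1het libraries, while 1 library stands far above the rest of N1het healthy for Hey1 (77.8), Hey2 (80.1) and Maml1 (34.0).

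The libraries held 8.4 to 27.3 M recovered reads (megareads; median 13.7 M). Depth fell without a clear break, and the labels name no batch. Results are also given for the 15 shallower libraries, a split by rank that leaves out the 6 deepest (WT 1, N1het healthy 1 and 4, N1het healthy XCT790 1 and 2, N1het stenosis XCT790 2). The split also changes which libraries are compared and how many, so it does not isolate depth. Markers of cell types that valves contain were present. Dcn, a matrix proteoglycan of valve interstitial cells, was at 2580 to 5373 FPKM, and the endothelial Pecam1 and Cdh5 were above 0 in every library. These markers do not separate valve from neighbouring tissue. Heart muscle and smooth muscle markers varied widely, their summed levels spanning 35.9 to 4697 FPKM and 82.6 to 3519 FPKM. Tnnt2 of heart muscle reached 1859 FPKM in N1het healthy 6, and Acta2 of smooth muscle reached 2216 FPKM in WT 4. How much neighbouring tissue each library held was not measured. Notch1 itself averaged 26.8 ± 7.75 FPKM in N1het stenosis XCT790, 24.9 ± 3.45 in N1het stenosis, 32.4 ± 8.91 in N1het healthy XCT790, 35.6 ± 9.37 in N1het healthy and 33.9 ± 8.93 in WT (SD). Notch1 differed by 0.06 ± 0.25 on the log2 scale (SE) between N1het healthy and WT (limma adjusted p = 0.972). The labels do not say where in Notch1 the allele is altered, so its RNA level cannot serve as a check of the genotype.

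The comparison of stenotic with healthy valves within the N1het genotype asked whether the effectors differ with disease. Hes1, Hey1 and Heyl had lower estimates in stenotic valves, while the intervals of Hey2, Nrarp and the 3 cofactors spanned 0. No gene passed the test after adjustment over all genes. Averaged over both agents with equal weight, the log2 difference was -0.90 ± 0.24 (SE) for Hes1, -1.15 ± 0.45 for Hey1 and -0.80 ± 0.37 for Heyl. In bulk tissue, fewer cells of a type and less RNA per cell cannot be told apart. Whether the libraries of a group came from separate animals is not in the labels, and the p-values therefore reflect only how much these samples vary.

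Hes1, the most widely expressed repressor of the family, had 38.0, 23.9 and 13.3 FPKM in N1het stenosis XCT790 and 23.6, 18.4 and 22.8 FPKM in N1het stenosis. It had 48.6, 35.7, 37.7, 60.4 and 41.7 FPKM in N1het healthy XCT790, and its lowest, median and highest values in N1het healthy were 19.6, 44.8 and 68.3 FPKM. All 3 solvent-treated stenotic libraries lay below 5 of the 6 healthy ones, and the groups overlapped through N1het healthy 6. Over the 2 agents Hes1 averaged 23.3 ± 8.25 FPKM in the 6 stenotic libraries and 44.2 ± 13.8 FPKM in the 11 healthy N1het libraries. The 95% confidence interval of its log2 difference ran from -1.40 to -0.39, with a limma p of 0.0014 and an adjusted p of 0.125. Within the 15 shallower libraries the difference was -0.95 (adjusted p = 0.527). The 6 deepest include 1 stenotic library and give no value of their own. Hes1 passed the threshold once, with a difference of -0.997 and an adjusted p of 0.0467, when N1het healthy 6 was left out. Leaving out each of the 21 libraries in turn gave differences of -1.07 to -0.71 and adjusted p of 0.0467 to 0.396.

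Hey1, a repressor of endothelial and endocardial cells in the embryo, had 22.5, 12.1 and 15.4 FPKM in N1het stenosis XCT790 and 14.1, 7.83 and 3.80 FPKM in N1het stenosis. It had 30.7, 37.1, 46.5, 29.3 and 11.2 FPKM in N1het healthy XCT790, against a lowest, median and highest value of 8.08, 27.4 and 77.8 FPKM in N1het healthy. The 6 stenotic libraries lay at or below 22.5 FPKM, yet the stenotic and healthy groups of each agent overlapped. Hey1 averaged 12.6 ± 6.45 FPKM in the 6 stenotic libraries and 30.7 ± 19.5 FPKM in the 11 healthy ones (interval of the log2 difference -2.09 to -0.21, limma adjusted p = 0.309). Within the 15 shallower libraries the difference was -1.04 (adjusted p = 0.706). In solvent-treated valves alone the difference was -1.53 ± 0.63 for Hey1 (adjusted p = 0.424) and -0.89 ± 0.34 for Hes1 (adjusted p = 0.378).

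Heyl, a family member best known from vascular smooth muscle, had 24.3, 7.29 and 13.9 FPKM in N1het stenosis XCT790 and 9.43, 36.2 and 13.0 FPKM in N1het stenosis. Its values were 42.7, 55.9, 18.6, 40.8 and 16.6 FPKM in N1het healthy XCT790, and 12.0, 23.7 and 37.4 FPKM were the lowest, median and highest in N1het healthy. N1het stenosis 2 lay above all but 1 of the N1het healthy libraries. It also had the highest smooth muscle marker mean of its group, 5.61 as log2(FPKM + 1). The same held for the highest Heyl libraries N1het stenosis XCT790 1 (6.48) and N1het healthy XCT790 2 (6.39). It did not hold in N1het healthy, where N1het healthy 1 had the highest Heyl level and a marker mean of 2.36. The part of smooth muscle in the Heyl values was not tested. The averaged difference had an interval of -1.55 to -0.04 and a limma adjusted p of 0.402. Among the 15 shallower libraries it shrank to -0.31 (adjusted p = 0.920). With solvent-treated valves alone, Heyl differed by -0.44 ± 0.51 (SE), with an interval of -1.50 to 0.62 and a limma adjusted p of 0.84.

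The other 5 genes showed no difference that the spread allowed to be seen. Hey2, known from arterial endothelium and ventricular muscle, differed by 0.04 ± 0.46 (SE) and by -0.49 within the 15 shallower libraries. The feedback inhibitor Nrarp differed by 0.13 ± 0.52, with an interval of -0.94 to 1.21, and by 0.76 under voom, the count-based fit described below. In solvent-treated valves alone Nrarp differed by -0.09 in limma and by 0.80 under voom. Rbpj differed by -0.19 ± 0.19, Maml1 by -0.31 ± 0.27 and Maml2 by -0.16 ± 0.20. For the steady Rbpj the interval was narrow, from -0.58 to 0.21, and for Maml2 it ran from -0.57 to 0.25.

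**Figure D2:**
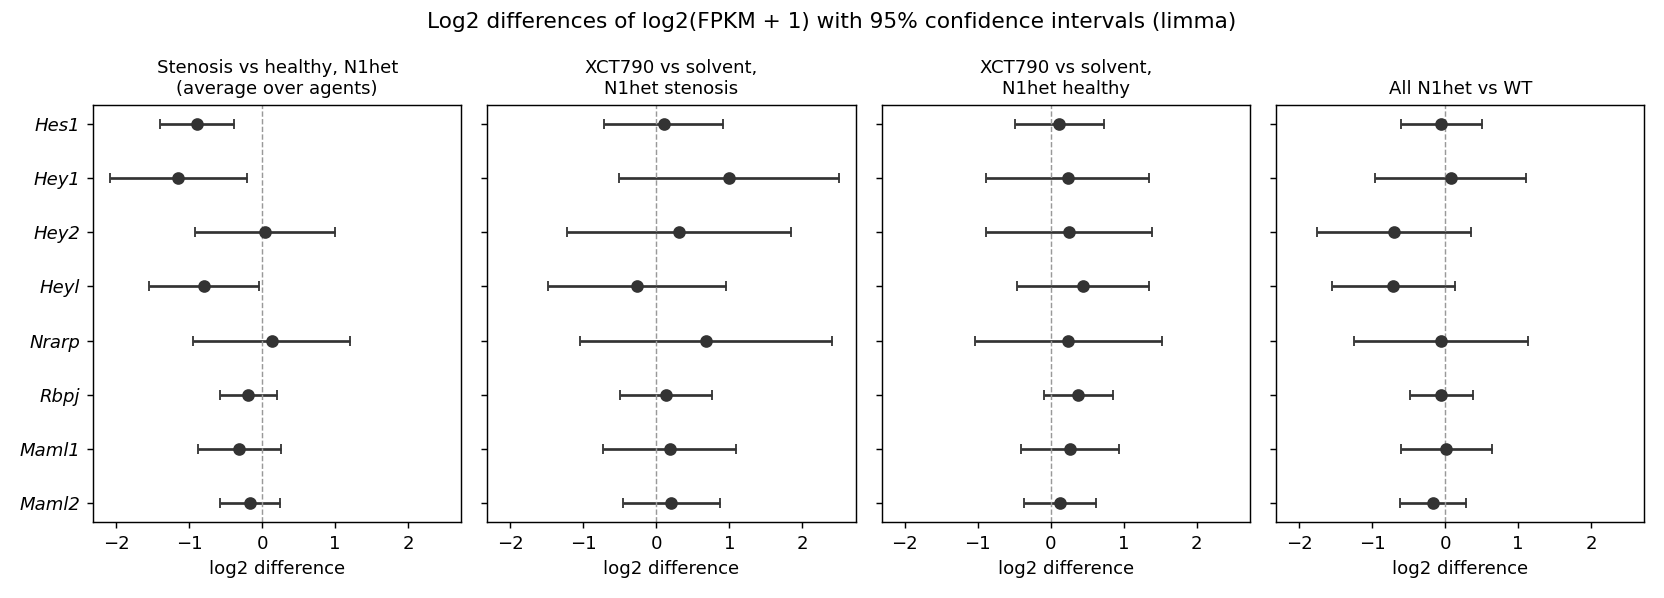
Log2 differences of log2(FPKM + 1) (horizontal axes) for the 8 genes in 4 comparisons, first-named group minus second; points are limma estimates and bars 95% confidence intervals. In the averaged stenosis comparison the intervals of Hes1 (-1.40 to -0.39), Hey1 (-2.09 to -0.21) and Heyl (-1.55 to -0.04) lie below 0, and in the other 3 comparisons every interval spans 0.

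In the averaged comparison limma called 0 of the 8 genes at an adjusted p under 0.05, where 0.374% of the 14966 genes tested were called. At an unadjusted p under 0.05 there were 3 of 8 (Hes1, Hey1 and Heyl), where 11.5% of all genes passed. A count-based fit (voom) on the recovered reads called 0 of 8, against 0.561% of all genes, and had 2 (Hes1 and Heyl) at an unadjusted p under 0.05, against 12.4%. The median log2 difference was -0.25 over the 8 genes and 0.00 over all genes tested. In solvent-treated valves limma called 0 of 8, against 0.0334% of all genes, with 2 (Hes1 and Hey1) at an unadjusted p under 0.05, against 9.6%. There voom called 0 and had 0 at an unadjusted p under 0.05, against 0.0% and 8.86% of all genes. No gene had groups that did not overlap in either comparison, which 0.147% and 5.46% of all genes had.

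Cell type markers moved in the same comparison. Macrophage markers were higher in stenotic valves for 8 of 8, with a median log2 difference of 0.87 and 1 called. Their summed level was 1540 to 6364 FPKM in N1het stenosis XCT790, 3004 to 5294 in N1het stenosis, 942 to 2778 in N1het healthy XCT790 and 781 to 1840 in N1het healthy. For the interstitial cell and fibroblast list, 8 of 9 markers were lower, with a median of -0.42 and 2 called. Their sum was 6414 to 8278 FPKM in N1het stenosis XCT790, 6108 to 7374 in N1het stenosis, 9348 to 10796 in N1het healthy XCT790 and 8357 to 12613 in N1het healthy. Endothelial markers were higher for 9 of 10 (median 0.44, 0 called). No defining marker of these 3 lists was at 0 in any library. Smooth muscle markers were higher for 5 of 8 (median 0.08) and heart muscle markers lower for 7 of 10 (median -0.21), with 0 called. The part of macrophages, interstitial cells and smooth muscle in the Hes1, Hey1 and Heyl values was not tested. With the mean endothelial marker level as a covariate the Hes1 difference was -0.98 (limma adjusted p = 0.113), and with heart muscle markers it was -0.90. Both covariates were lists with 0 markers called, so these fits do not address the macrophage and interstitial cell lists.

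Solvent-treated N1het stenosis differs from WT in genotype and disease at once. Its estimates against WT were lower for all 8 genes, from -0.21 for Rbpj to -0.99 for Hey1. That of Nrarp, however, turned to 0.04 under voom and to 0.11 without WT 4. The median log2 difference was -0.45 over the 8 genes and 0.06 over all genes tested. Heyl differed by -0.97 ± 0.55 (SE), with 33.1, 11.6, 53.9 and 59.5 FPKM in WT beside the stenotic values above. Macrophage markers were higher in stenosis for 8 of 8 (median 1.08) and interstitial cell markers lower for 8 of 9 (median -0.20). Smooth muscle markers were lower for 6 of 8 (median -0.63). Heart muscle markers were higher for 8 of 10 (median 0.95) and endothelial markers for 6 of 10 (median 0.23). None of these markers was called, and their part in the effectors' values was not tested. Limma called 0 of 8, against 0.0334% of all genes, and 0 had an unadjusted p under 0.05, against 10.4%; voom had 0 by either count, against 0.02% and 10.2%. This comparison and that of N1het healthy with WT share the 4 WT libraries.

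Loss of 1 Notch1 allele in healthy, solvent-treated valves came with no called change in its nuclear effectors. Hey2 had a lowest, median and highest value of 5.47, 10.7 and 80.1 FPKM in N1het healthy, against 39.9, 17.3, 26.9 and 28.3 FPKM in WT. Of the 6 N1het healthy libraries 4 lay below all WT libraries, and N1het healthy 3 lay above them. Hey2 thus differed by -0.85 ± 0.58 on the log2 scale (SE; limma adjusted p = 0.762). Among the 15 shallower libraries the difference was -0.29. Means were 23.3 ± 28.9 FPKM in N1het healthy and 28.1 ± 9.28 FPKM in WT (SD), so the log scale and the means differ in how much weight N1het healthy 3 carries.

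Heyl differed by -0.53 ± 0.46 between N1het healthy and WT, and Hey1 by 0.54 ± 0.57. Leaving out each library in turn moved Heyl between -1.02 and -0.26 and Hey1 between 0.04 and 1.12, and Hey1 stood at 1.27 in the 15 shallower libraries and 0.12 under voom. Beside these values, heart muscle markers were higher in N1het healthy for 9 of 10 (median 1.67) and smooth muscle markers lower for 7 of 8 (median -1.15), with 0 called, and their part was not tested. In WT, Hey1 was at 57.1, 5.17, 19.0 and 11.1 FPKM, and these values span most of those in N1het healthy. Hes1 differed by 0.34 ± 0.31, with 37.0, 28.8, 43.5 and 22.0 FPKM in WT. Nrarp differed by -0.25 ± 0.66, Rbpj by -0.15 ± 0.24, Maml2 by -0.15 ± 0.25 and Maml1 by 0.04 ± 0.35. Limma called 0 of 8, against 0.0% of all genes, and 0 had an unadjusted p under 0.05, against 7.42%. Voom called 0, against 0.0%, and had 1 (Hey2) at an unadjusted p under 0.05, against 8.95%.

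With all 17 N1het libraries set against WT, each N1het group weighted equally, no effector was called. Hey2 differed by -0.70 ± 0.51 and Heyl by -0.71 ± 0.40 (SE; limma adjusted p = 0.663 and 0.562). Heyl averaged 24.9 ± 13.5 FPKM in N1het and 39.5 ± 21.8 FPKM in WT (SD). Beside this, smooth muscle markers were lower in N1het for 6 of 8, with a median log2 difference of -0.78 and 0 called, and their summed level ran from 177 to 3519 FPKM within WT alone. Their part in the Heyl value was not tested. The estimates of the other 6 genes lay between -0.16 and 0.08, but that of Hey1 (0.08) ran from -0.41 to 0.66 over libraries left out and was 0.71 in the 15 shallower ones, where Hey2 was at -0.49 and Heyl at -0.75. Limma called 0 of 8, against 0.02% of all genes, and 0 had an unadjusted p under 0.05, against 10.1%; voom had 0 by either count, against 0.0% and 10.9%.

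XCT790 was compared with solvent separately in stenotic and healthy N1het valves. In stenotic valves Hey1 averaged 16.7 ± 5.32 FPKM with XCT790 and 8.56 ± 5.17 FPKM with solvent (SD, n = 3 each). In this pair of groups 1 XCT790 library lay below the highest solvent library. Its log2 difference was 0.99 ± 0.73 (SE; interval -0.51 to 2.50, limma adjusted p = 1). Nrarp was at 7.22, 0.285 and 5.92 FPKM with XCT790, against 1.75, 2.32 and 0.942 FPKM with solvent, so the XCT790 libraries lay on both sides of the solvent ones. Nrarp differed by 0.68 ± 0.83, and by 0.19 to 1.53 over libraries left out. In the 15 shallower libraries, which lack the low Nrarp library N1het stenosis XCT790 2, it differed by 1.53 and Hey1 by 1.19. The estimates of Hes1, Hey2, Rbpj, Maml1 and Maml2 lay between 0.10 and 0.32, and that of Heyl was -0.27 ± 0.59. Limma called 0 of 8, against 0.0% of all genes, and 0 had an unadjusted p under 0.05, against 3.35%; voom had 0 by either count, against 0.0% and 2.53%.

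In healthy valves no effector was called. The estimates with XCT790 were above 0 for all 8 genes, from 0.12 to 0.44 (median 0.25, against 0.03 over all genes tested). The narrowest was that of Rbpj, which averaged 28.1 ± 5.81 FPKM with XCT790 and 21.7 ± 5.93 FPKM with solvent (SD), a log2 difference of 0.38 ± 0.23 (SE; interval -0.09 to 0.85). Rbpj was at 23.7, 26.6, 21.9, 34.3 and 34.1 FPKM with XCT790, against 14.9, 22.8 and 28.5 FPKM as the lowest, median and highest with solvent. Heyl differed by 0.44 ± 0.44. In the same comparison smooth muscle markers were higher for 7 of 8 (median 0.88) and macrophage markers for 7 of 8 (median 0.46), while endothelial and heart muscle markers were lower for 10 of 10 each (medians -0.45 and -1.19). None of these markers was called, and their part in the effectors' values was not tested. Limma called 0 of 8, against 0.0% of all genes, and 0 had an unadjusted p under 0.05, against 2.65%; voom had 0 by either count, against 0.0% and 3.09%. For both XCT790 comparisons the agent field contradicts the titles for 3 libraries each. In N1het stenosis these are all 3 libraries, so the conflict also bears on the comparisons of that group with healthy N1het valves and WT. With groups taken from the agent field, 5 of the 8 estimates in healthy valves were below 0 (Hey1 -0.58, Nrarp -0.41, Maml1 -0.12, Maml2 -0.12 and Heyl -0.019). Without N1het healthy 6 the estimates were -0.08 for Hes1 and -0.06 for Hey1, and within the 15 shallower libraries they were -0.10 for Nrarp and -0.08 for Hey1.

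The direct test of whether the XCT790 difference was the same in stenotic and healthy valves called 0 of 8 genes, against 0.0% of all genes. The interaction estimate was 0.76 ± 0.90 (SE) for Hey1 and -0.71 ± 0.73 for Heyl, and the limma adjusted p was 1 for all 8 genes. At an unadjusted p under 0.05 limma had 0, against 2.98% of all genes, and voom had 0 by either count, against 0.0% and 2.84%.

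The authors' deposited table marks changed genes in 5 comparisons, by a test whose name was not part of the sources. It marks 0 of the 8 genes in each. In the authors' deposited table the share of all genes marked was 0.666% for N1het healthy against WT, 1.35% for stenosis against WT and 1.26% for stenosis against healthy N1het. In the authors' deposited table it was 0.125% for XCT790 in healthy and 0.268% for XCT790 in stenotic valves.

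The rest of the Notch pathway was read from a list of 75 other genes, of which 71 were listed in the data and 67 tested. By role, the highest mean levels over the 21 libraries were those of Notch2 (34.4 FPKM) and Notch1 (31.7) among receptors, and of Jag1 (10.6) and Dll1 (5.75) among ligands. Psenen, a gamma-secretase subunit, averaged 148 FPKM, and the sheddase Adam10 averaged 24.0. Numb, an inhibitor of the receptor, averaged 31.0 FPKM, and Mib1, a ligase that makes ligands active, averaged 25.0. The acetyltransferase genes Crebbp and Ep300, whose products MAML proteins recruit, averaged 54.3 and 43.2 FPKM. Fhl1, placed with the corepressors in the list, averaged 104 FPKM, a gene-level value that does not separate transcript forms. The other Hes genes were low, with Hes6 at 4.57 and Hes7 at 1.99 FPKM, so Hes1 was per length the highest of the Hes genes tested. Among further targets, Cdkn1a and Ccnd1, which encode cell cycle regulators, averaged 309 and 88.1 FPKM.

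In stenotic against healthy valves, averaged over agents, 0 of the 67 genes were called in either direction. At an unadjusted p under 0.05 there were 4 higher and 6 lower of 67, where 11.5% of all genes passed, and the list's median difference was -0.03, against 0.00 over all genes. Ccnd1, the cyclin D1 gene, had the smallest p, with 125 ± 26.0 FPKM in stenotic and 70.6 ± 19.4 FPKM in healthy valves (SD; log2 difference 0.82 ± 0.18 (SE), limma adjusted p = 0.0508). Lfng, a glycosyltransferase that modifies Notch receptors, averaged 10.3 ± 2.42 FPKM in stenotic and 3.10 ± 2.63 FPKM in healthy valves (1.70 ± 0.47, adjusted p = 0.127). Snai1, a repressor active when endocardial cells turn into mesenchyme, differed by -1.21 ± 0.37 (adjusted p = 0.174). In solvent-treated valves alone, Notch2 differed by -1.14 ± 0.36 (adjusted p = 0.286), the corepressor gene Spen by -0.85 ± 0.28 (adjusted p = 0.303) and Notch1 by -0.47 ± 0.27 (adjusted p = 0.635).

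**Figure D3:**
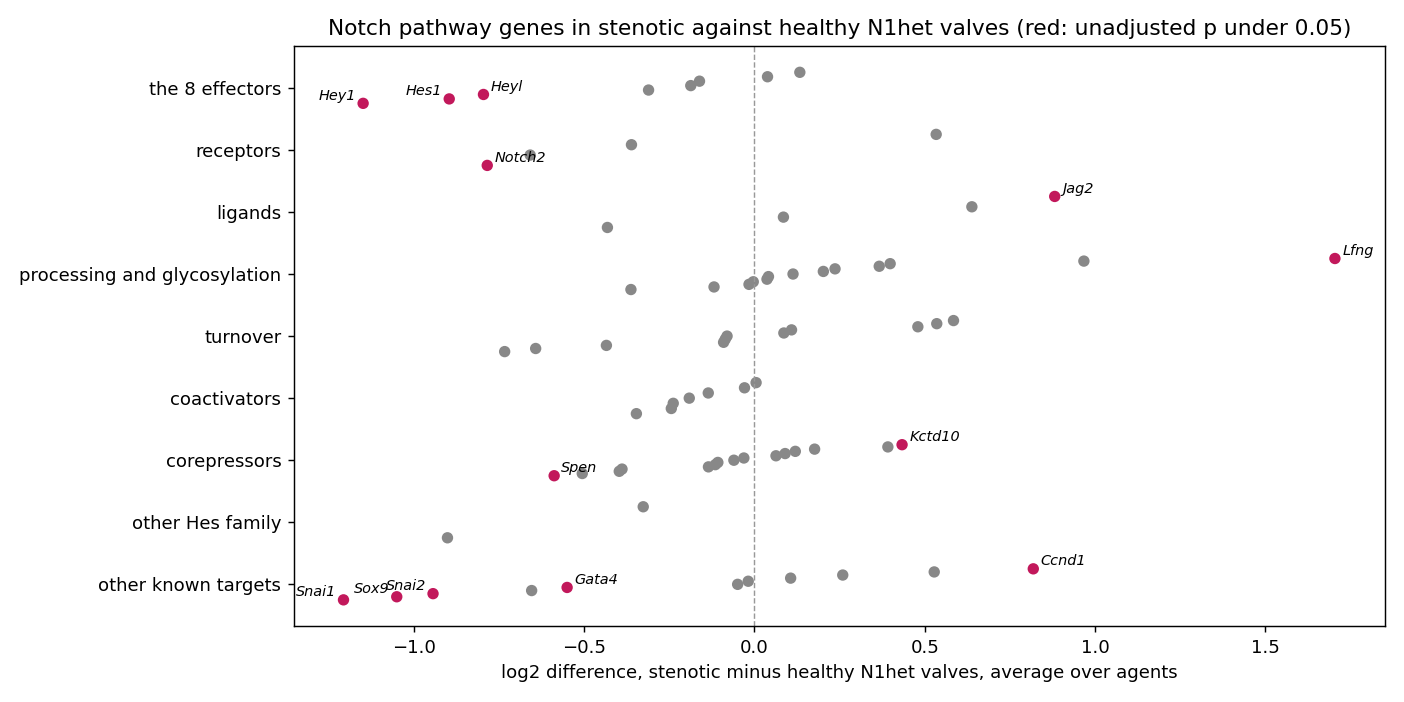
Log2 differences (horizontal axis, stenotic minus healthy N1het valves, average over agents) of the 8 effectors and of the 67 other pathway genes tested, 1 row a role; red points have an unadjusted limma p under 0.05 and are named. Hey1, Hes1 and Heyl lie left of 0 with Snai1 at -1.21, and Ccnd1 (0.82) and Lfng (1.70) lie right of 0.

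The other comparisons called 0 of the 67 genes in either direction as well. At an unadjusted p under 0.05, 2 were higher and 5 lower in stenosis against healthy with solvent (9.6% of all genes passed), and 4 higher and 4 lower in stenosis against WT (10.4%). The counts were 1 higher and 0 lower in N1het healthy against WT (7.42%), and 4 higher and 1 lower for all N1het against WT (10.1%). With XCT790 they were 2 higher and 1 lower in stenotic valves (3.35%) and 0 in healthy valves (2.65%), and the interaction had 0 above and 1 below (2.98%). These counts lay near or under the shares of all genes. Snw1, which encodes the SKIP coregulator of RBPJ, led the genotype comparison with 0.69 ± 0.24 (limma adjusted p = 0.542). Spen led both XCT790 comparisons, with 1.00 ± 0.32 in stenotic and 0.47 ± 0.24 in healthy valves (adjusted p = 1 for both).

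Across the 21 libraries the effectors' levels were compared pair by pair on the log2(FPKM + 1) scale, 28 pairs in all, and none passed adjustment over the 28. The pair with the highest correlation was Hes1 and Hey1, with Pearson's r of 0.605 (permutation p = 0.00368, adjusted 0.103) and Spearman's rho of 0.604 (permutation p = 0.00443, adjusted 0.124). Without the 2 libraries farthest from the median of Hey1, r was 0.609. It was 0.594 within the 15 shallower and 0.643 within the 6 deepest libraries, and 0.436 once group means were removed. Hes1 and Rbpj followed, with r of 0.544 (permutation p = 0.0107, adjusted 0.150) and rho of 0.561 (permutation p = 0.00914, adjusted 0.128). Without the 2 libraries farthest from the median of Rbpj, r was 0.515. Within the 15 shallower libraries it was 0.607, within the 6 deepest libraries 0.234, and with group means removed 0.560.

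The same was done for each gene against the mean level of endothelial, interstitial cell and macrophage markers, 24 relations in all, and none passed adjustment. Hey2 and endothelial markers had r of 0.550 (permutation p = 0.00953, adjusted 0.165) and rho of 0.490 (permutation p = 0.0252, adjusted 0.202). Without the 2 libraries farthest from the median r was 0.475, and within the 15 shallower and 6 deepest libraries it was 0.461 and 0.880. The value in the 6 deepest was not particular to endothelial markers. There Hey2 had r of 0.882 with macrophage markers and -0.871 with interstitial cell markers. N1het healthy 3, which had the highest Hey2 level, also had the highest endothelial marker mean. Heyl and macrophage markers had r of -0.535 (permutation p = 0.0137, adjusted 0.165) and rho of -0.548 (permutation p = 0.0116, adjusted 0.142). Without the 2 libraries farthest from the median, r was -0.465, and within the 15 shallower and 6 deepest libraries it was -0.460 and -0.663. Maml1 and interstitial cell markers had r of 0.461 (permutation p = 0.037, adjusted 0.241) and rho of 0.545 (permutation p = 0.0118, adjusted 0.142). That r was 0.605 without the 2 farthest libraries, 0.426 within the 15 shallower and -0.269 within the 6 deepest. Smooth muscle and heart muscle markers were left out of these relations, so how the effectors, Heyl included, relate to them across libraries was not tested.

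**Figure D4:**
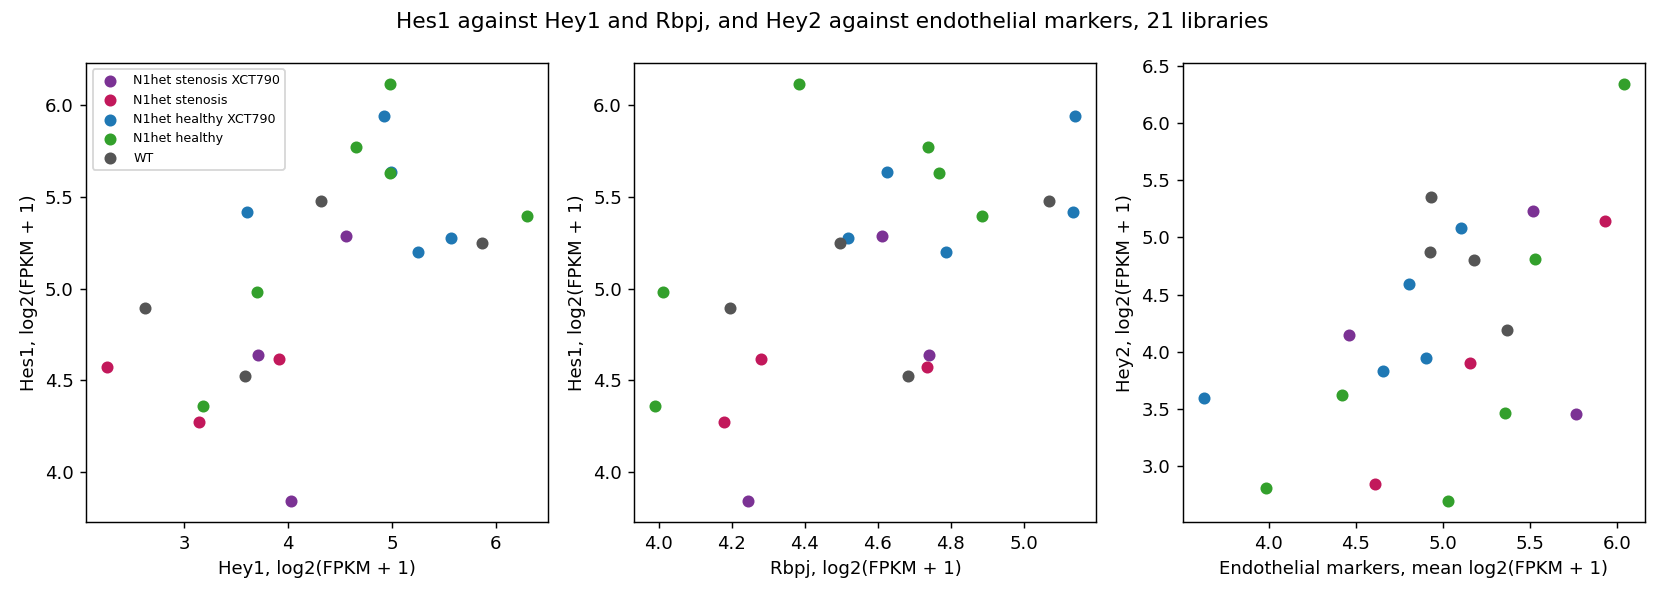
Hes1 against Hey1 (left), Hes1 against Rbpj (middle) and Hey2 against the mean of the endothelial markers (right), all as log2(FPKM + 1), 1 point for each of the 21 libraries, coloured by group. Pearson's r is 0.605, 0.544 and 0.550 from left to right, and the highest point of the right panel is N1het healthy 3.

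The genes whose pattern over the 21 libraries was most like each effector were taken from all genes tested, as a description without a test, since libraries share groups, depth and tissue makeup. For Hes1 they were Meis2 (r = 0.791), a homeobox gene, and Prickle1 (r = 0.788), a gene of planar cell polarity. For Hey1 they were Syde1 (r = 0.772) and Mdm4 (r = 0.771), which encodes a p53 inhibitor. Hey2 had the closest likeness of all, with Sgk3 (r = 0.915), a kinase gene, then Cd24a (r = 0.808) and the growth factor gene Nrg1 (r = 0.806). For Heyl they were Ppp1r12b (r = 0.891), a myosin phosphatase subunit of muscle, and Sparcl1 (r = 0.811), a matricellular protein gene. Nrarp was closest to the zinc transporter gene Slc30a5 (r = 0.820), Maml2 to the kinase gene Pdpk1 (r = 0.802) and Maml1 to Samd14 (r = 0.764). The highest value for Rbpj was only 0.717, with Tbc1d5. No other effector was among the 3 genes most like any of the 8.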

How the data were processed

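Mouse aortic valves were lysed directly, and total RNA (Qiagen RNeasy Micro) was amplified for sequencing (NuGEN Ovation V2), per the labels' protocols. The build mm9 and the tools FastQC, HISAT2, SAMtools and Picard come from the submitters' processing notes. Tool versions, counter, annotation and strand setting were not given in the sources used. Reads of overlapping or antisense genes therefore cannot be separated. The authors deposited FPKM of 20872 genes per library, per the file headers, with 0 or 1 marks of changed genes.

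Whole reads were recovered from the FPKM steps for 100% of genes within 0.01 reads. Limma 3.58.1 (R 4.3.3, statmod 1.5.0) was fitted on log2(FPKM + 1) for 14966 genes (mean of at least 1 FPKM), with 5 group means over 21 libraries, trended and robust moderation and Benjamini-Hochberg adjustment over all genes tested in each of 8 contrasts. Genes under an adjusted p of 0.05 were called. Fold changes on this scale understate those of low genes such as Nrarp. Voom on the recovered reads was an alternative. Correlations used 100000 permutations, two-sided. The fit was tested on simulated data.

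The 8 genes and all lists were chosen with earlier results of these data known. All 8 are described. Other pathway genes are named when called or, failing that, as the 3 with the smallest p in a comparison, and by level as at most the 2 highest of a role. Of the pathway list, 1 gene is not reported here. Notch1 was added as the targeted gene. The 3 genes most like each effector were ranked by Pearson's r. Same-numbered libraries did not deviate together, so the main model has no pairing term.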

Additional observations from a re-analysis of the deposited data

Results flagged for a closer look

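In the groups of 4 to 6 libraries, 24 sets of a gene in a group were checked for 1 library standing apart from the rest, and 3 stood out, all in N1het healthy and each in a different library. Chance gives such a library in about 1 of 20 sets of normally distributed values, and FPKM are skewed. Hey1 was at 77.8 FPKM in N1het healthy 5, the next library being at 30.7, a gap of 0.676 of the group's range against a critical value of 0.625. Hey2 was at 80.1 FPKM in N1het healthy 3, the next being at 27.0 (gap 0.711). Maml1 was at 34.0 FPKM in N1het healthy 1, the next being at 13.7 (gap 0.774). On the log2(FPKM + 1) scale the gaps were 0.422 for Hey1 and 0.420 for Hey2, under the critical value, and 0.627 for Maml1, just above it.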

How the results depend on the processing

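Over the 8 comparisons the 8 genes gave 64 results, recomputed with each library left out and under 13 other choices of scaling, filter, pseudocount, tool, covariate, depth split and grouping. Of 2056 such values 140 had the other sign, and the reported difference was then no larger than its SE except for Heyl under XCT790 in healthy valves, at -0.019 with groups by the agent field. Of the 2056 values 1 crossed the threshold, Hes1 in the averaged stenosis comparison without N1het healthy 6, so the number of effectors called there was 0 to 1 over the libraries left out. Without 1 library the number of all genes called there ran from 2 to 78, against 56, and under other choices from 0 to 97. Grouping by the agent field leaves no solvent-treated stenotic group, so comparisons that need one have no such value. Replicate numbers did not pair the samples (34 same-numbered pairs, mean correlation of deviations 0.0104, 3 over 0.1, and 3 libraries correlating best with their own number). With the replicate block, which absorbs N1het healthy 6 as the only library of its number, 0 of the 8 genes were called in any comparison, and 97 of all genes, against 56, in the averaged stenosis comparison. Small groups and, for Nrarp, few reads limit precision: its 95% interval in stenotic valves with XCT790 ran from -1.05 to 2.41.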
